A study of Mus musculus with 9 samples.

Results

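The loci described here are 519 lncRNA loci of the mouse lung that the GENCODE M21 annotation files under the gene type TEC, for transcripts that still await experimental proof. They were taken by gene identifier from the deposited table of FPKM values, which has 60108 rows of assembled and annotated transcripts. Of 528 TEC rows in that table, 7 had a mean below 0.1 FPKM over the 9 libraries and 2 loci were not used here, which left the 519. The rule uses the gene type and the mean level, and no change between groups. The 2 loci just above the limit, Gm44817 and Gm10797, had means of 0.142 and 0.143 FPKM, and the 2 just below it, Gm43553 and 4921508M14Rik, had 0.0818 and 0.0829. In all, 37300 rows of the table passed the same limit.

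The libraries came from whole lungs of young adult male C57BL/6 mice and were made from total RNA after removal of ribosomal RNA. Ventilator-induced lung injury (VILI) was produced by mechanical ventilation at high tidal volume. The study compared 3 control mice, which were intubated but not ventilated, with 3 mice killed at the end of ventilation (VILI 0 hours) and 3 mice killed 6 hours later (VILI 6 hours). Each library was 1 mouse, and no mouse carried a genetic change. Values of a group are given below in the order of its replicates 1, 2 and 3.

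The deposited values are FPKM without read counts. Counting error was not computed, and the read totals that the study lists for the libraries were not used here. The FPKM of a library summed to between 366360 and 388459. Markers of lung tissue were present throughout: the summed FPKM of 16 alveolar type 2 genes lay between 14562 and 17503 in all 9 libraries. VILI 6 hours replicate 1 stood apart from its group. Its summed FPKM over 9 erythroid genes was 501, against 3473 and 3892 in replicates 2 and 3, and over 15 glucocorticoid-responsive genes it was 454, against 2488 and 3798. Its 12 airway epithelial genes summed to 42374, against 25413 and 24060. VILI 6 hours replicate 3 differed in another list, with inflammatory mediators that summed to 2633 FPKM, against 480 and 628 in replicates 1 and 2. Summed neutrophil markers (16 genes) were 60.3, 53.9 and 60.5 FPKM in control, 586, 1075 and 952 at VILI 0 hours, and 489, 1065 and 2108 at VILI 6 hours. In whole lung RNA, fewer cells of a type and less RNA per cell cannot be told apart.

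The TEC class was set up for regions where full-length cDNA or expressed sequence tags with signs of polyadenylation pointed to a transcript whose gene structure had not been established. Many such records are unspliced and lie inside the introns of protein-coding genes. RNA read from an intron can come from a transcript of its own or from host pre-mRNA before splicing, and a total RNA library without ribosomal RNA holds both. A cleavage and polyadenylation signal, the hexamer AATAAA or its common variant ATTAAA, usually stands shortly before the 3′ end of a polyadenylated RNA.

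The last 50 bases of 8 intronic loci are shown because they are the ends of the loci whose RNA moved furthest or was most abundant in these lungs. Gm38177 in Nckap5 (chr1:126323635-126323684, minus strand), Gm43856 in Abcg3 (chr5:104971695-104971744, minus) and Gm42675 in Sema3a (chr5:13552679-13552728, plus) had the lowest changes of log2(FPKM + 0.1) at VILI 0 hours among intronic loci. Gm37347 in Il1r2 (chr1:40091532-40091581, plus), Gm44165 in Tarm1 (chr7:3489611-3489660, minus) and Gm44292 in Mxd1 (chr6:86663188-86663237, minus) had the highest among the loci called higher. Gm37347 and Gm44165 had control means below 0.1 FPKM and are described below without a test. C230096K16Rik in Klf3 (chr5:64805686-64805735, plus) and Gm37589 in Mbnl1 (chr3:60539695-60539744, plus) had the highest mean FPKM of the intronic loci. Positions are on GRCm38 and the bases, 5′ to 3′ on the strand of the locus, are those of the GENCODE M21 transcripts. Capitals mark AATAAA or ATTAAA.
Gm38177: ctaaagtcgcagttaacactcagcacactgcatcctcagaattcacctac
Gm43856: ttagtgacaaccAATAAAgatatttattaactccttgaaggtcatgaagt
Gm42675: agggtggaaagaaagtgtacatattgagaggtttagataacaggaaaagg
Gm37347: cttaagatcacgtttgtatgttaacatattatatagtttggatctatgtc
Gm44165: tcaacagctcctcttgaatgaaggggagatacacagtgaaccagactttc
Gm44292: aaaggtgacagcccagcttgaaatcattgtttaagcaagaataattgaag
C230096K16Rik: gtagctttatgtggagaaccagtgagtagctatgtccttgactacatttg
Gm37589: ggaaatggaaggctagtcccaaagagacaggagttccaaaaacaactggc

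Of these 8 ends, 1 holds a hexamer, that of Gm43856. Over the 520 transcripts of the TEC loci, 21.2% held AATAAA or ATTAAA in their last 50 bases (15.2% AATAAA and 6.73% ATTAAA). Among 35925 coding transcripts the share was 64.7%, and among 765 lincRNA transcripts 47.2%. The same hexamers stood in 5.97% of the first 50 bases of the TEC loci and in 4.24% of the middle 50, and on the reverse strand of the last 50 bases in 8.48%. Their ends held the hexamers more often than their starts and middles, yet less often than the ends of coding genes. The share was 17.9% for loci in an intron of a gene on the same strand (81 of 453), 28.6% for loci that overlap an exon (4 of 14), 42.1% for loci outside coding genes (16 of 38) and 64.3% for loci on the opposite strand (9 of 14). Ends rich in A (at least 12 of the last 20 bases) made up 8.46% of TEC, 8.04% of coding and 7.58% of lincRNA transcripts. The TEC transcripts had a GC content of 41.5%, below the 50.6% of coding and the 47.9% of lincRNA transcripts. The absence of the hexamer says only that these letters were not in the window.

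All but 1 of the 519 loci have a single exon, with a median locus length of 2299 bases (quartiles 1568.5 and 3211.5). By position, 453 lay within an intron of a protein-coding gene on the same strand, 14 overlapped an exon of such a gene, 14 lay over a coding gene on the opposite strand and 38 lay outside coding genes. A host, meaning a coding gene on the same strand, was in the table for 466 loci, and 411 different host genes held them, 363 with 1 locus and 48 with more. The hosts were long genes: their median span was 90341 bases, against 23483 for the 15307 coding genes with a mean of at least 0.1 FPKM. At the median, the midpoint of a locus lay 38.7% of the way along its host. Mean FPKM ranged from 0.142 to 36.1 with a median of 1.28, and 328 loci reached 1 FPKM. In control lungs the FPKM of a locus was 10.6% of the summed FPKM of its host at the median (quartiles 6.49% and 16.7%), and 0 of 466 exceeded their host. FPKM is scaled by length, so these are levels per base of transcript. The labels name a TruSeq kit for the libraries and the methods of the study a directional NEBNext kit, and how the reads were assigned with respect to strand is not given in the sources used here, so reads of a locus on the opposite strand and of its host cannot be told apart, nor can reads of an intronic locus and of unspliced host RNA.

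At the end of ventilation the TEC loci were mostly lower than in control. With limma on log2(FPKM + 0.1), 202 of 519 were lower and 6 higher at an unadjusted P under 0.05, the threshold for every call, rise or fall given below. Over all 37300 rows the test called 6.31% lower and 4.71% higher (11% in all), so the share of lower TEC loci was well above the background and the share of higher ones was below it. The median log2 change of the TEC loci was -0.51 (quartiles -0.84 and -0.26), against -0.08 for all rows, and it was -0.29 with 1 FPKM in place of 0.1 FPKM added before the log. Of the changes, 465 of 519 (89.6%) were below 0. All 3 VILI 0 hours libraries lay below all 3 control libraries at 288 loci and above them at 12 (all rows, 15.6% lower and 8.59% higher). No TEC locus passed an adjusted p of 0.05 in limma with all 9 libraries, the lowest being 0.103, where 0.0509% of all rows did. Without VILI 6 hours replicate 1, which enters this comparison only through the common error estimate, 15 loci passed it, and 9 did when the 6 libraries compared were fitted alone. Without control replicate 2 the number of called loci fell from 208 to 128, and centring each library on its median moved the median change by 0.12, to -0.39, with 152 lower and 7 higher.

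The lower level was present in each ventilated mouse. Against the control mean, the median TEC log2 difference was 0.01, 0.09 and -0.12 in the control libraries, -0.59, -0.53 and -0.46 at VILI 0 hours and -0.22, -0.39 and -0.20 at VILI 6 hours. The 3 groups do not overlap on this measure. The summed FPKM of the TEC loci was 1150, 1209 and 1064 in control, 782, 782 and 880 at VILI 0 hours, and 999, 891 and 1020 at VILI 6 hours, while the sum over their hosts stayed between 9949 and 10414 in all 9 libraries. Library medians of mRNA rows were -0.07, -0.04 and -0.07 at VILI 0 hours. The annotated sense-intronic lncRNAs, a separate gene type with 136 rows, gave -0.62, -0.59 and -0.56, close to the TEC values. The 453 lincRNA rows, from genes of their own, gave -0.16, -0.12 and -0.20. Row by row, 55 of 136 sense-intronic RNAs were lower and 2 higher at VILI 0 hours, and 36 of 453 lincRNAs were lower and 22 higher.

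**Figure D1:**
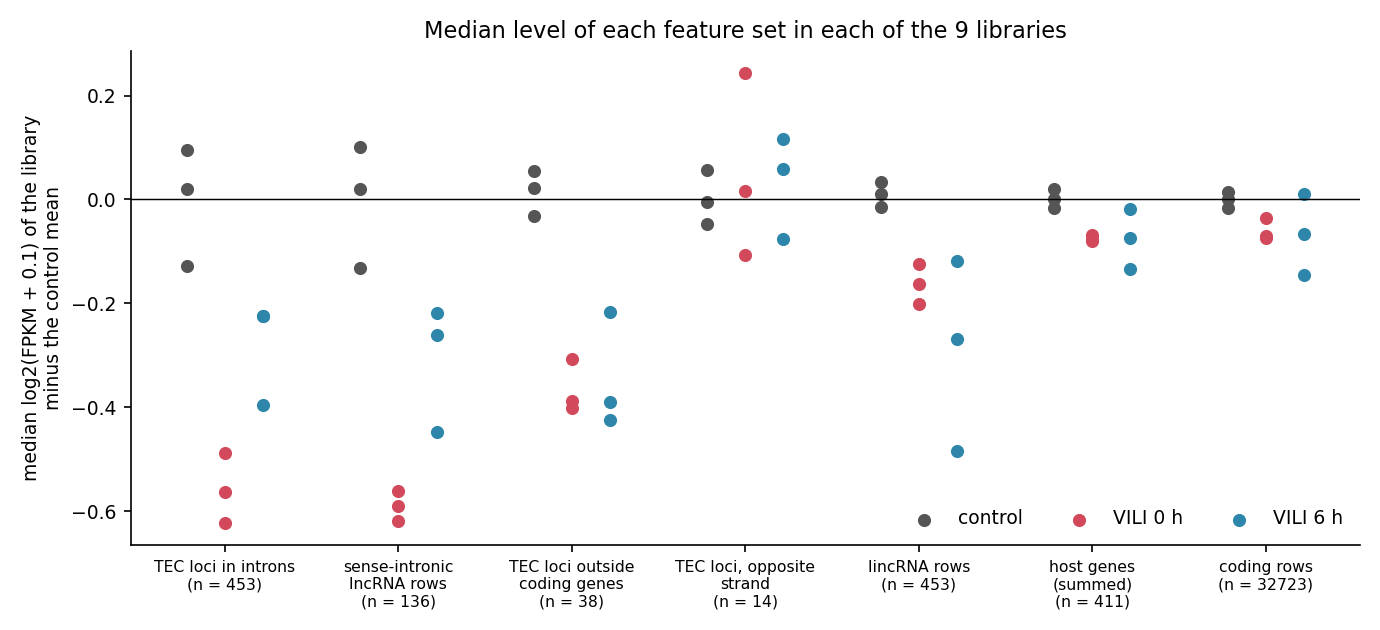
Median log2 difference of each library from the control mean (y axis) for 7 sets of features, with 1 point per library of the 3 groups. TEC loci in introns sit at -0.62, -0.56 and -0.49 at VILI 0 hours and at -0.22, -0.40 and -0.22 at VILI 6 hours. The host genes of TEC loci stay between -0.13 and -0.02 in the ventilated libraries.

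Summed over their transcripts, the 411 host genes did not share this shift. At VILI 0 hours 32 hosts were higher and 54 lower at P under 0.05, with a median change of -0.08. The test called 6.81% of all 19378 genes higher and 9.35% lower (16.2% in all), so the share of lower hosts, 13.1%, was somewhat above the background. The split of the hosts turned to 41 higher and 24 lower when libraries were centred on their medians. 1 host passed an adjusted p of 0.05 (all genes, 0.284%), against 34 without VILI 6 hours replicate 1 and 37 when the 6 libraries compared were fitted alone. The number of called hosts, 86, rested on single libraries: it was 53, 46 and 55 without control replicates 1, 2 and 3, 52 without VILI 0 hours replicate 3, and 130 if replicate 1 at VILI 6 hours was dropped from the common error estimate.

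For each locus the log2 ratio of its FPKM to the summed FPKM of its host was tested in the same way. At VILI 0 hours the ratio was lower for 182 of 466 loci and higher for 1, with a median change of -0.47, and 431 of 466 changes were below 0. The background here, 737 noncoding rows with a host on the same strand, contains the 466 and had 34.3% lower and 1.09% higher (35.4% in all). Among the other 271 rows of that set, 71 were lower and 7 higher, with a median of -0.39, and for the 134 sense-intronic rows within them the median was -0.48. A fall relative to the host was seen in intronic RNAs of both gene types. 75 TEC ratios passed an adjusted p of 0.05 (background, 14%), a number that held only in part: it was 0 without control replicate 1, 2 or 3 or VILI 0 hours replicate 1, 47 without VILI 0 hours replicate 2, 15 without VILI 0 hours replicate 3, 39 with a pseudocount of 1 FPKM, and 0 when the host was read from its most abundant transcript alone. The adjusted p of single ratios given below share this dependence. Centring the libraries on the median of the ratios, which are mostly those of TEC loci, took out 0.45 of the shift by construction and left 42 lower and 14 higher.

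Of the 191 loci with a host that were lower at VILI 0 hours, the host was lower too for 46, higher for 2 and not called for 143. Their median change was -0.91, against -0.21 for the hosts. Among the 36 loci whose host was higher, 4 loci were higher themselves and 2 were lower, and 25 had a change below 0. Of those 4, Gm37347 and Gm44165 had control means below 0.1 FPKM and passed that limit only through libraries where they are high. Across the 466 loci the change of a locus and of its host had a Pearson r of 0.71 and a Spearman correlation of 0.53, or 0.55 and 0.53 over the 463 loci whose control mean reached 0.1 FPKM. This is a description over loci of the same 6 libraries, in which locus and host can share reads.

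**Figure D2:**
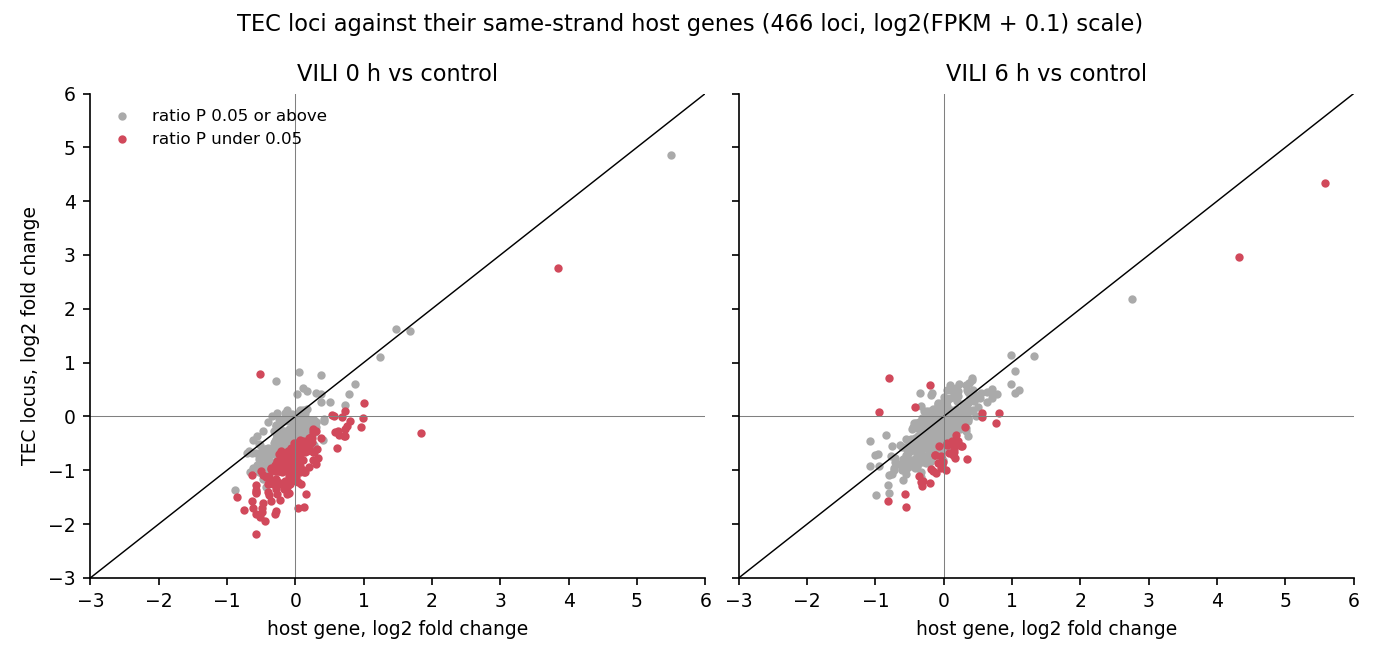
Log2 change of each of 466 TEC loci (y axis) against the log2 change of its host gene (x axis), at VILI 0 hours and VILI 6 hours against control, with loci whose ratio to the host had an unadjusted P under 0.05 in red. At VILI 0 hours most points lie below the diagonal of equal change (median of the difference -0.47), and at VILI 6 hours the shift is smaller (-0.22).

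The lowest log2 change at VILI 0 hours was that of Gm38177, within Nckap5, a gene for an NCK adaptor-associated protein. Gm38177 read 8.80, 10.1 and 7.56 FPKM in control, 1.13, 2.22 and 2.48 at VILI 0 hours and 8.22, 2.06 and 1.86 at VILI 6 hours. All 3 VILI 0 hours values lay below every control value, and the high VILI 6 hours value was that of replicate 1. The change was -2.19 ± 0.54 on the log2 scale (SE; adjusted p = 0.232). Nckap5 itself read 54.8, 59.9 and 60.3 FPKM in control and 61.9, 33.4 and 28.4 at VILI 0 hours, with replicate 1 above every control value. The ratio changed by -1.60 ± 0.55, a call that was lost without VILI 0 hours replicate 1 (-0.94).

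Gm42675 lies in Sema3a, which encodes a secreted semaphorin that guides axons and vessels. Its FPKM were 0.965, 1.04 and 0.899 in control, 0.136, 0.312 and 0.160 at VILI 0 hours and 0.938, 0.159 and 0.209 at VILI 6 hours. Control and VILI 0 hours did not overlap, and at VILI 6 hours only replicate 1 was at the control level. The locus fell by 1.86 ± 0.54 at VILI 0 hours (adjusted p = 0.283), and its ratio to Sema3a fell by 1.34 ± 0.28 on the log2 scale (limma, adjusted p = 0.0317). Sema3a read 15.5, 16.0 and 17.9 FPKM in control and 10.6, 10.4 and 13.7 at VILI 0 hours, which gave -0.52 ± 0.44 (adjusted p = 0.598).

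Gm43856, in the ABC transporter gene Abcg3 and the locus above whose end holds AATAAA, read 0.764, 0.989 and 1.32 FPKM in control and 0.0395, 0.507 and 0.182 at VILI 0 hours. The groups did not overlap, and the change was -1.94 ± 0.63, with a P of 0.0150 that was 0.0504 if control replicate 3 was dropped and 0.0537 if replicate 1 at VILI 0 hours was dropped. Its ratio to Abcg3 fell by 1.49 ± 0.33 on the log2 scale (adjusted p = 0.0319). 2610012C04Rik lies in Nav1, a neuron navigator gene whose product binds microtubules. It had 1.55, 1.61 and 0.721 FPKM in control and 0.263, 0.262 and 0.298 at VILI 0 hours, so its 3 ventilated values were close together and far below control. The locus fell by 1.82 ± 0.43, and Nav1 fell as well, by 0.58 ± 0.18, from 23.7, 21.9 and 17.1 to 13.9, 15.5 and 12.4 FPKM. The ratio to Nav1 fell by 1.24 ± 0.27 on the log2 scale (adjusted p = 0.0317).

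F830212C03Rik in Pdzd2, a PDZ domain gene, had 0.695, 0.594 and 0.640 FPKM in control and 0.233, 0 and 0.180 at VILI 0 hours, where replicate 2 is listed at 0. It fell by 1.82 ± 0.52 on the log2(FPKM + 0.1) scale, which understates the change of low values, while Pdzd2 read 149, 102 and 140.3 FPKM in control and 82.5, 115 and 119 at VILI 0 hours. Antxr1, which encodes a collagen-binding anthrax toxin receptor, holds 2 loci. Gm44414 read 2.61, 2.27 and 1.66 FPKM in control and 0.557, 0.924 and 0.314 at VILI 0 hours, and Gm44417 read 2.72, 2.70 and 2.19 and 0.546, 0.927 and 0.678. Both lay lower in all 3 ventilated mice than in any control mouse, and both fell, by 1.78 ± 0.43 and 1.71 ± 0.41 on the log2 scale. Antxr1 fell by 0.49 ± 0.16, so each locus fell further than its host (ratios -1.29 and -1.22, adjusted p = 0.0353 and 0.0378).

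Some loci fell within hosts that did not pass the test. Gm3793 lies in Nt5c3, a pyrimidine 5′-nucleotidase gene. It had 0.899, 1.95 and 1.44 FPKM in control and 0.339, 0.525 and 0.251 at VILI 0 hours, without overlap, while Nt5c3 had 10.1, 10.2 and 10.4 and 11.00, 10.4 and 12.2. The ratio fell by 1.80 ± 0.36 on the log2 scale (adjusted p = 0.0317). Gm43953 in Pdzrn3, a gene for a RING-type ubiquitin ligase, read 1.68, 2.52 and 1.48 FPKM in control and 0.415, 0.470 and 0.637 at VILI 0 hours. These groups are far apart, and the ratio to Pdzrn3 fell by 1.74 ± 0.42 on the log2 scale (adjusted p = 0.0353).

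The lowest P at VILI 0 hours was that of Gm37140, in the intron of Pam, which encodes the monooxygenase that amidates peptide hormones. It read 3.08, 3.88 and 3.09 FPKM in control, 1.02, 1.23 and 1.32 at VILI 0 hours and 3.54, 2.69 and 2.60 at VILI 6 hours. The VILI 0 hours values were the lowest of the 9 and did not overlap with either other group. The fall at VILI 0 hours was by 1.42 ± 0.20 on the log2 scale (adjusted p = 0.103). Pam itself read 114, 116 and 115 FPKM in control, 117, 104 and 103 at VILI 0 hours and 86.9, 90.1 and 87.8 at VILI 6 hours. Pam was lower at VILI 6 hours, with changes of -0.38 ± 0.08 against control and -0.29 ± 0.08 against VILI 0 hours, while the locus rose by 1.23 ± 0.20 between the times. Its ratio to Pam fell by 1.33 ± 0.24 at VILI 0 hours (adjusted p = 0.0271) and rose by 1.52 ± 0.24 from VILI 0 hours to VILI 6 hours (adjusted p = 0.0259). That adjusted call was lost in 8 of the 9 fits that left out 1 library.

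6 loci were higher at VILI 0 hours, and the 3 with the highest change lie in Il1r2, Tarm1 and Mxd1. Gm37347 is in Il1r2, the decoy receptor for interleukin-1. It read 0.0592, 0.113 and 0.0962 FPKM in control, 1.37, 5.70 and 19.2 at VILI 0 hours and 0.491, 7.72 and 11.7 at VILI 6 hours, and Il1r2 read 0.261, 0.451 and 0.465, 9.42, 19.5 and 55.2 and 2.97, 42.9 and 93.0. Every ventilated library lay above every control library, over a wide range. Il1r2 rose by 5.50 ± 1.10 on the log2 scale at VILI 0 hours. The control mean of Gm37347 was below the limit of 0.1 FPKM, as were those of Gm44165 and of Gm37498, so these 3 loci passed the limit only through the ventilated libraries where they are high, and their values are given as a description with no test. The counts of higher loci include Gm37347 and Gm44165. In the same way 1 of the 202 lower loci, Gm36970 in Col6a3, named after its values were seen, had a VILI 0 hours mean below the limit and passed it through the other groups.

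Gm44165 lies in Tarm1, an activating receptor of myeloid cells. Its FPKM were 0, 0.0681 and 0 in control, 0.311, 0.924 and 1.14 at VILI 0 hours and 0.360, 1.22 and 1.20 at VILI 6 hours, so that it is listed at 0 in 2 control libraries and above 0.3 in all 6 ventilated ones. Tarm1 read 0.171, 0.0336 and 0.0667 FPKM in control, 0.797, 4.401 and 4.29 at VILI 0 hours and 1.76, 4.93 and 4.99 at VILI 6 hours, also higher in each ventilated library. Gm44292 lies in Mxd1, whose product opposes MYC. It read 1.61, 1.30 and 1.23 FPKM in control and 2.60, 3.89 and 7.81 at VILI 0 hours and rose by 1.58 ± 0.42, close to the 1.68 ± 0.41 of Mxd1. These groups did not overlap. The summed neutrophil markers given above moved in the same libraries (12 of the 14 tested were higher at VILI 0 hours and 13 at VILI 6 hours, with Mpo and Elane too low to be tested). Il1r2 is itself one of these markers and so is Slc7a11, another host. Of the other 12 tested, 11 were higher at VILI 0 hours and 11 at VILI 6 hours (all genes, 6.81% and 8.17% higher). Ly6g is among them, with 0, 0.053 and 0 FPKM in control, so it passed the limit only through the ventilated libraries. The part of these markers in the values of these 3 loci was not tested.

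The other 3 higher loci had smaller changes and rested on single libraries. Gm42651 in Clip1, a gene for a microtubule plus-end protein, read 1.83, 2.01 and 2.06 FPKM in control and 3.24, 2.47 and 4.91 at VILI 0 hours, a change of 0.76 ± 0.31. Its P of 0.0358 exceeded 0.05 without any of the 3 control libraries or VILI 0 hours replicate 1 or 3, the highest being 0.133 without the last. Gm37199, outside coding genes, read 0.147, 0.230 and 0.140 FPKM in control and 0.267, 0.454 and 0.619 at VILI 0 hours, and its change of 0.97 ± 0.36 was lost without control replicate 1 or 3 or VILI 0 hours replicate 2 or 3 (P up to 0.0977). Gm43123, also outside coding genes, read 0.167, 0.0570 and 0.225 and 0.371, 0.506 and 0.571 FPKM. Its change of 1.27 ± 0.53 was lost without control replicate 1 or 2, any VILI 0 hours replicate or VILI 6 hours replicate 2 (P up to 0.132).

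The change at VILI 0 hours was larger in longer hosts. The 453 intronic loci were ordered by the span of their host and split into 4 groups of 113 or 114. The median TEC change was -0.32 in the shortest hosts (spans 5119 to 52004 bases), -0.55 and -0.61 in the next groups, and -0.83 in the longest (205778 to 1135410 bases). The called lower share rose from 13.2% through 44.2% and 49.6% to 61.1% (15, 50, 56 and 69 loci). The hosts had medians of 0.02, -0.12, -0.15 and -0.10, and 4.42%, 10.6%, 20.4% and 20.5% of them were called lower, a smaller difference in the same direction. The ratio to the host gave -0.31, -0.42, -0.50 and -0.72, with 3, 16, 16 and 40 loci at an adjusted p under 0.05. These adjusted calls were 0 without control replicate 1, 2 or 3 or VILI 0 hours replicate 1.

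Over the 453 loci the Spearman correlation of host span with the change at VILI 0 hours was -0.46. For other features it was nearer to 0: -0.33 for the distance of the locus from the host's start, 0.01 for its relative position along the host, 0.15 for mean FPKM and -0.16 for the length of the locus. Host span also went with the change of the host itself at -0.20 over 411 genes, and with that of sense-intronic RNAs at -0.59 over 134 rows. Host span and distance from the start are related quantities, all these loci share the same libraries, and several share a host. Locus ends with and without a polyadenylation hexamer had nearly the same median, -0.56 over 81 loci and -0.54 over 372.

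At VILI 6 hours the order was the same but the differences were smaller, with medians of -0.23, -0.26, -0.29 and -0.42 from the shortest to the longest hosts and 18, 17, 16 and 19 lower loci. From VILI 0 hours to VILI 6 hours the medians were 0.06, 0.27, 0.40 and 0.43, with 3, 16, 21 and 31 higher loci. Over all rows 7.51% were called lower at VILI 6 hours against control, and 3.82% were called higher between the times. The Spearman correlation with host span was -0.15 for VILI 6 hours against control and 0.40 for VILI 6 hours against VILI 0 hours.

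**Figure D3:**
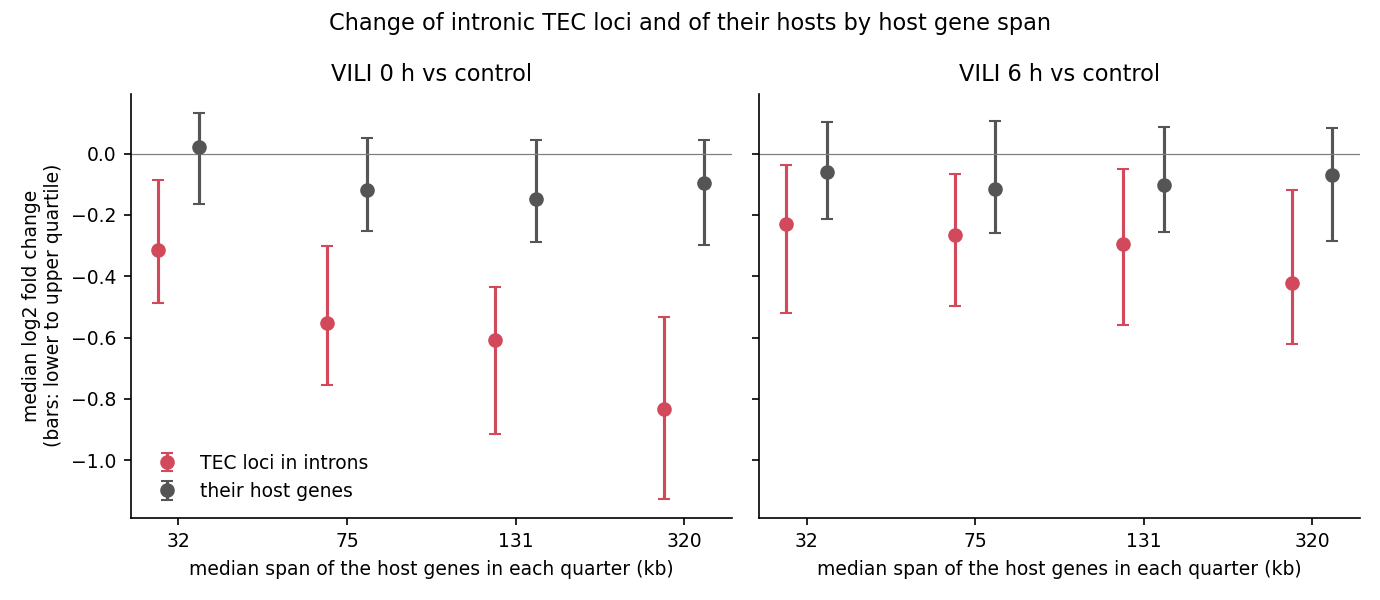
Median log2 change against control (points) with quartiles (bars) of intronic TEC loci grouped by the span of their host, from the shortest to the longest hosts, at VILI 0 hours and VILI 6 hours. The medians go from -0.32 to -0.83 at VILI 0 hours and from -0.23 to -0.42 at VILI 6 hours.

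The loci are next given by their position relative to the coding gene, and the difference between positions was not tested. Those in an intron on the same strand had a median change of -0.55 at VILI 0 hours, with 190 of 453 lower and 4 higher. The 14 loci that overlap an exon had a median of -0.23 with 2 lower. The 14 loci on the opposite strand had a median of 0.04 with 0 called by limma in either direction at an unadjusted P under 0.05. The 38 loci outside coding genes had a median of -0.33, with 10 lower and 2 higher. Of these 38, the 9 within 5000 bases of the end of a coding gene upstream on the same strand had a median of -0.24 and the 29 farther away -0.40. At VILI 6 hours the medians were -0.28 for intronic loci (70 lower, 5 higher), -0.08 for exonic (1 and 1), 0.13 for opposite-strand (0 and 1) and -0.32 for outside loci (13 and 1). From VILI 0 hours to VILI 6 hours 71 intronic loci were higher and 3 lower, with a median of 0.29, while the outside loci had a median of 0.06. Over all rows the test called 7.51% lower and 5.73% higher at VILI 6 hours against control. Between the times it called 3.82% of all rows higher and 3.58% lower.

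**Figure D4:**
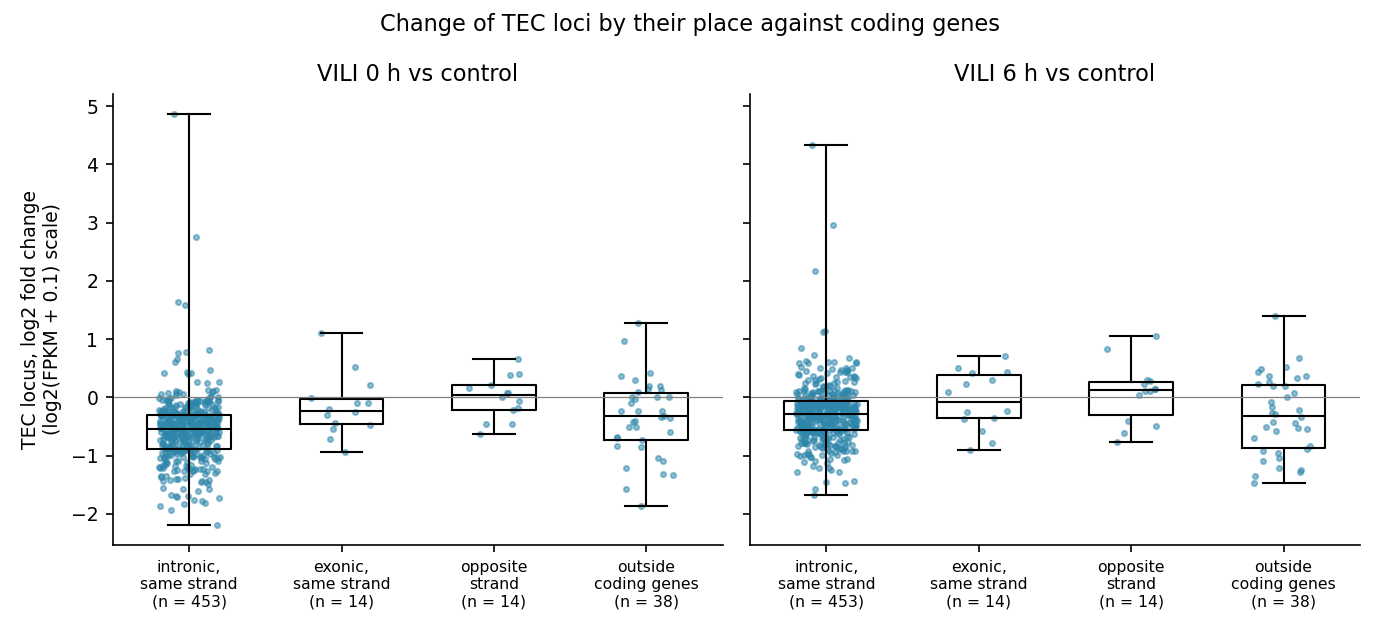
Log2 change against control (y axis) of the TEC loci by position: intronic on the same strand, exonic on the same strand, opposite strand and outside coding genes, at VILI 0 hours and VILI 6 hours. Boxes span the quartiles with the median, whiskers the lowest and highest locus, and the medians at VILI 0 hours are -0.55, -0.23, 0.04 and -0.33.

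48 hosts held more than 1 locus, 103 loci in all. At VILI 0 hours the log2 change of every locus lay below that of its host in 45 of the 48. The same count was 33 at VILI 6 hours against control and 2 for VILI 6 hours against VILI 0 hours. The median range among loci of a host was 0.26 at VILI 0 hours. Loci of a host lie within the same gene and are not independent.

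Cacnb2, a β subunit gene of voltage-gated calcium channels, holds 4 loci, and their changes were from -1.60 to -0.91 where Cacnb2 had -0.47. Gm37006 among them read 2.39, 2.82 and 1.77 FPKM in control and 0.510, 0.698 and 0.894 at VILI 0 hours and fell by 1.60 ± 0.31 on the log2 scale. Gm37437 fell as well, by 1.17 ± 0.30. Gm38105 had -0.91 ± 0.42 (adjusted p = 0.481), and Gm37891 had -0.95 ± 0.35, a call lost without control replicate 1 or 2 or VILI 0 hours replicate 2 or 3. All 4 lay below Cacnb2.

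In Apbb2, whose product binds the amyloid precursor protein, the 3 loci ranged from -1.46 to -0.67 and the host had -0.38. Gm43795 read 2.15, 2.46 and 1.90 FPKM in control and 0.598, 1.15 and 0.537 at VILI 0 hours and fell by 1.46 ± 0.31, and C530043K16Rik read 2.31, 2.42 and 1.91 and 0.953, 1.17 and 0.797 and fell by 1.12 ± 0.24. The third, Gm43790, had -0.67 ± 0.27, which was lost without control replicate 1 or 2, VILI 0 hours replicate 1 or 3 or VILI 6 hours replicate 2. In Ncoa2, a nuclear receptor coactivator gene, the host had -0.02 and the loci -0.77 to -0.49. Gm38120 fell by 0.77 ± 0.23, from 2.94, 3.22 and 2.47 to 1.33, 1.73 and 1.90 FPKM, while Ncoa2 read 17.1, 16.0 and 15.8 in control and 15.6, 16.4 and 16.2 at VILI 0 hours.

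Atp8a1, a phospholipid flippase gene, rose at VILI 0 hours by 0.73 ± 0.23 on the log2 scale, from 83.8, 53.3 and 54.0 to 95.1, 97.9 and 119 FPKM. Its 3 loci did not pass the test, at -0.36 to 0.09. Gm42735 read 6.78, 6.86 and 4.59 FPKM in control and 6.64, 5.24 and 7.49 at VILI 0 hours, which overlap. Relative to Atp8a1, D630030B08Rik and Gm42737 changed by -1.09 ± 0.34 and -0.96 ± 0.28. In Akap13, a gene for a protein that anchors protein kinase A, the 3 loci (-0.42 to 0.06) lay on both sides of the host (-0.27) and none passed the test, with P of 0.0510 or more at VILI 0 hours.

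Kansl1l holds 3 loci on its strand, with changes from -0.85 to -0.34 where the host had -0.27. Of these, the calls of Gm37570 and 6820402A03Rik were lost without single libraries (control replicate 1 or 3 or VILI 0 hours replicate 1 for the former, any control replicate or VILI 0 hours replicate 1 or 2 for the latter). The other locus, Gm38162, lies on the opposite strand. It read 0.565, 0.699 and 0.638 FPKM in control, 1.47, 0.530 and 0.795 at VILI 0 hours and 0.910, 1.41 and 2.19 at VILI 6 hours, with VILI 6 hours above control in all 3 libraries. Its change at VILI 6 hours was 1.05 ± 0.42, a call lost without any control replicate or VILI 6 hours replicate 2 or 3. Ppp2r3a, a regulatory subunit gene of protein phosphatase 2A, holds Gm37314 on its strand and Gm37953 and Gm37962 on the other, and their changes at VILI 0 hours, -0.59, -0.46 and -0.18, did not pass the test.

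Few host genes belong to the marker and pathway lists used here. Among alveolar type 1 markers, Limch1 and Sema3e are hosts. Gm43281 in Limch1, a gene for an actomyosin regulator, read 7.73, 9.75 and 6.30 FPKM in control and 2.47, 3.21 and 4.67 at VILI 0 hours, without overlap, and fell by 1.20 ± 0.30 while Limch1 had 0.01 ± 0.13 (ratio adjusted p = 0.0363). Gm43282 in the same gene fell by 0.95 ± 0.30, and Gm43519 in Sema3e had -0.90 ± 0.40 (adjusted p = 0.470). Summed alveolar type 1 markers were 2591 to 2613 FPKM in control and 2473 to 2826 at VILI 0 hours, so their level in control lay within that at VILI 0 hours.

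3 fibroblast genes are hosts. Col1a2, a chain of type I collagen, had -0.39 ± 0.15 at VILI 0 hours, a call lost without control replicate 1 or 2 or VILI 0 hours replicate 1 or 3 (P up to 0.105). Its locus Gm43921 had -0.93 ± 0.53 (adjusted p = 0.576), with 4.12, 5.51 and 3.995 FPKM in control and 3.54, 1.94 and 1.80 at VILI 0 hours. Gm37701 in the integrin gene Itga8 had -1.23 ± 0.70 (adjusted p = 0.573). Gm42534 in Slit2, a guidance ligand gene that fell by 0.88 ± 0.23, had -1.38 ± 0.58 with an adjusted p of 0.437, and its unadjusted call was lost without any control or VILI 0 hours library or VILI 6 hours replicate 2. Of the 27 fibroblast and smooth muscle genes that are not hosts, 5 were lower and 2 higher at VILI 0 hours (all genes, 9.35% lower and 6.81% higher). The summed FPKM of the whole list of 30, which includes the 3 hosts, was 2599 to 2801, against 3112 to 3222 in control. The part of that list in the change of these loci was not tested.

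Ptprc, which encodes the leukocyte antigen CD45, did not pass the test and neither did its locus A130071D04Rik, with 4.87, 4.16 and 4.70 FPKM in control and 3.28, 4.18 and 4.05 at VILI 0 hours. Gm37498 in the cystine transporter gene Slc7a11 had 0.0465, 0.126 and 0.0510 FPKM in control, 0.196, 0.310 and 1.13 at VILI 0 hours and 0.154, 0.407 and 3.46 at VILI 6 hours. Every ventilated value lay above control and the highest was that of VILI 6 hours replicate 3. Gm43658 in the circadian gene Clock had -0.41 ± 0.26 at VILI 0 hours (adjusted p = 0.609), and Gm43909, opposite the clock repressor gene Bhlhe41, had -0.45 ± 0.37 (adjusted p = 0.696). Gm43747 in Fip1l1, a component of the polyadenylation machinery, had -0.56 ± 0.21, and Gm38375 in the exonuclease gene Xrn1 had -0.45 ± 0.17. Both passed P under 0.05, and both calls were lost without single libraries (control replicate 2 or 3 or VILI 0 hours replicate 1 or 3 for Gm43747, control replicate 1 or 2 or VILI 0 hours replicate 2 or 3 for Gm38375).

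The genes that process 3′ ends or turn over nuclear RNA were listed as context. Of 16 genes for poly(A) signal recognition and cleavage, 2 were higher at VILI 0 hours (Pcf11 and Clp1) and 2 lower (Cpsf6 and Cstf2). Of 10 genes for intron and nuclear RNA turnover 1 was lower (Dis3, -0.30). Over all 19378 genes the test called 6.81% higher and 9.35% lower at VILI 0 hours (16.2% in all). The lists are short, and a difference from these shares was not tested. Of 6 lncRNAs known to stay in the nucleus, 3 were lower at VILI 0 hours. These were Neat1, the scaffold of paraspeckles (-0.61), Airn, an imprinted antisense RNA (-0.81), and Ftx, a noncoding gene of the X inactivation center (-0.59). Neat1 was lowest in VILI 0 hours replicate 1 (172 FPKM, against 313 and 336 in replicates 2 and 3), and without that library its change was -0.30. The call of Neat1 was lost without that library or without control replicate 1 or 2. The calls of Airn and Ftx were each lost without 1 library, those of Pcf11 and Clp1 without any 1 of 3, that of Cstf2 without any 1 of 5 and that of Dis3 without any 1 of 6, while that of Cpsf6 held. Malat1 had -0.29 and did not pass the test, with low levels in control replicate 2 (4382 FPKM) and VILI 0 hours replicate 2 (3206 FPKM).

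Among the 10 loci with the highest mean FPKM, 3 lie outside coding genes. Gm44250, 366 bases beyond the end of Pon3, had the highest level, with 40.4, 43.7 and 46.9 FPKM in control, 31.2, 37.6 and 33.8 at VILI 0 hours and 38.8, 26.04 and 26.3 at VILI 6 hours. It was lower at VILI 6 hours in each library and fell by 0.55 ± 0.16 on the log2 scale, while at VILI 0 hours it had -0.35 ± 0.16 (adjusted p = 0.483). Gm37352 read 19.2, 17.7 and 13.3 FPKM in control and 18.7, 11.4 and 21.9 at VILI 0 hours, and these overlap. Gm44509, 2725 bases beyond Nipa1, had -0.34 ± 0.20 at VILI 0 hours and -0.52 ± 0.20 at VILI 6 hours, the latter call lost without control replicate 1 or 3 or VILI 6 hours replicate 3 (P up to 0.0920).

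Of the 7 intronic loci among them, 3 fell at VILI 0 hours, and Gm37589 and A130048G24Rik are described here. Gm37589 lies in Mbnl1, a splicing regulator, and read 11.99, 13.8 and 11.9 FPKM in control, 7.33, 7.77 and 7.61 at VILI 0 hours and 11.3, 8.49 and 9.600 at VILI 6 hours. The VILI 0 hours values lay below all others, and the locus fell by 0.72 ± 0.13 (adjusted p = 0.160) where Mbnl1 had 0.06 ± 0.16. A130048G24Rik in Ankrd44 went from 9.56, 8.78 and 10.2 FPKM in control to 4.44, 5.28 and 6.46 at VILI 0 hours and fell by 0.82 ± 0.21, while Ankrd44 rose by 0.26 ± 0.10 on the log2 scale (ratio adjusted p = 0.0317). This is 1 of the 2 pairs called in opposite directions, but the call of Ankrd44 was lost without control replicate 2 or 3 or VILI 0 hours replicate 1 or 3 (P up to 0.106).

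The other 4 did not pass the test at VILI 0 hours. C230096K16Rik lies in Klf3, a transcriptional repressor, and had 11.9, 12.4 and 11.6 FPKM in control and 10.7, 9.38 and 19.4 at VILI 0 hours, a change of 0.06 ± 0.27. A930004J17Rik in Srsf4, a splicing factor gene, had -0.26 ± 0.15, Gm19721 in Gnai2, an inhibitory G protein gene, had -0.05 ± 0.15, and Gm42735 in Atp8a1 had 0.09 ± 0.21. Their hosts Klf3, Srsf4, Gnai2 and Atp8a1 span 29514, 28090, 21243 and 229295 bases, so that 3 of them are in the shortest of the 4 host groups and Atp8a1 is in the longest.

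At VILI 6 hours fewer loci differed from control: 84 of 519 were lower and 8 higher at P under 0.05 (all rows, 7.51% lower and 5.73% higher, 13.2% in all). The median change was -0.28 and 396 loci were below 0, against a median of -0.08 for all rows. The lincRNA rows were at a like level here, with a median of -0.30 and 77 of 453 lower (17.0%, against 16.2% of TEC loci), and sense-intronic rows had a median of -0.33 with 15 of 136 lower. All 3 VILI 6 hours libraries lay below control at 144 loci and above it at 13 (all rows, 11.2% and 7.36%), and 0 loci passed an adjusted p of 0.05 by limma (all rows, 0.0751%), the lowest being 0.138. These counts depended on the library that stood apart. Without VILI 6 hours replicate 1, 136 loci were lower and 22 higher, 36 passed an adjusted p of 0.05, and the median was -0.29. If control replicate 1 or 2 was dropped the number of called loci was 54 and 41, and if replicate 2 or 3 at VILI 6 hours was dropped it was 48 and 55, against 92 with all libraries.

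Of the 411 hosts, 31 were higher and 61 lower at VILI 6 hours (all genes, 8.17% and 12.2%, 20.4% in all), or 53 and 39 with median-centred libraries, and 4 passed an adjusted p of 0.05 (all genes, 0.702%). Without VILI 6 hours replicate 1, 175 hosts were called and 109 passed an adjusted p of 0.05. Without control replicate 3, 60 were called, and 0 passed the adjusted p in limma without any single control replicate. The ratio to the host was lower for 43 of 466 loci and higher for 4 (background, 9.36% and 1.63%, 11% in all), with a median of -0.22 and 0 at an adjusted p under 0.05 (limma; background, 0.407%). It was called for 84 loci without VILI 6 hours replicate 1, of which 8 passed an adjusted p of 0.05, and for 27 without control replicate 2. For 71 lower loci with a host, the host was lower for 30 and not called for 41, and the medians were -0.84 for the loci and -0.33 for the hosts. The other 271 noncoding rows with a host had a median ratio change of -0.24, with 26 lower and 8 higher.

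Some loci were called lower at VILI 6 hours without a call at VILI 0 hours, although their VILI 0 hours values also lay below every control value. Gm44008 in Mturn, a regulator of progenitor differentiation, read 1.16, 1.15 and 1.29 FPKM in control, 0.891, 0.828 and 1.11 at VILI 0 hours and 0.851, 0.180 and 0.148 at VILI 6 hours. Replicates 2 and 3 at VILI 6 hours were far below all other libraries. It fell by 1.68 ± 0.49 from control to VILI 6 hours, and Mturn fell by 0.55 ± 0.16. The difference between VILI 6 hours and VILI 0 hours was -1.36 ± 0.49, with a P of 0.0239 that exceeded 0.05 when replicate 3 at VILI 0 hours, or replicate 2 or 3 at VILI 6 hours, was left out (up to 0.0825). A530030E21Rik, outside coding genes, read 2.37, 1.68 and 1.70 FPKM in control, 1.38, 1.20 and 0.882 at VILI 0 hours and 0.559, 0.905 and 0.456 at VILI 6 hours. It stepped down over the 3 groups except that both ventilated groups overlap, and fell by 1.48 ± 0.31 from control to VILI 6 hours. Its change between the times, -0.78 ± 0.31, was lost without VILI 0 hours replicate 1 or 2 or replicate 1 or 3 at VILI 6 hours (P up to 0.101).

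Other loci were lower at both times. Gm43481 in Gtf2i, a general transcription factor gene, had 6.14, 5.88 and 4.63 FPKM in control, 2.35, 3.38 and 3.03 at VILI 0 hours and 3.35, 2.11 and 1.04 at VILI 6 hours. All 6 ventilated values lay below control. It fell by 1.44 ± 0.37 at VILI 6 hours and had -0.91 ± 0.37 at VILI 0 hours, a call lost without any control or VILI 0 hours library or VILI 6 hours replicate 2 (P up to 0.118). C130012C08Rik, outside coding genes, read 1.70, 1.75 and 1.76 FPKM in control, 0.947, 0.946 and 0.478 at VILI 0 hours and 1.25, 0.501 and 0.472 at VILI 6 hours. It fell by 1.25 ± 0.40 at VILI 6 hours and had -1.10 ± 0.40 at VILI 0 hours, where the call was lost without any control replicate or VILI 0 hours replicate 3 (P up to 0.0870). Gm44417 in Antxr1 read 1.51, 0.689 and 0.432 FPKM at VILI 6 hours and fell by 1.58 ± 0.41 from control. The calls of its neighbor Gm44414 (-1.28 ± 0.43; lost without control replicate 1 or VILI 6 hours replicate 2 or 3, P up to 0.0584) and of Gm21816 outside coding genes (-1.28 ± 0.51; lost without any control replicate or VILI 6 hours replicate 2 or 3, P up to 0.111) were less secure.

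The higher loci at VILI 6 hours again included Gm37347 and Gm44165, with the values given above and no test. Il1r2 rose by 5.58 ± 1.10 on the log2 scale. Gm44292 had 1.12 ± 0.42, a call lost without control replicate 2 or 3 or VILI 6 hours replicate 2 or 3 (P up to 0.102). Gm44260 in Bid, a proapoptotic gene, had 0.740, 0.823 and 0.745 FPKM in control, 0.916, 0.796 and 0.761 at VILI 0 hours and 1.38, 1.24 and 1.27 at VILI 6 hours. Every VILI 6 hours value lay above the other 6, and the locus rose by 0.68 ± 0.21 on the log2 scale (adjusted p = 0.272). 9530022L04Rik in the Polycomb gene Phc3 read 2.05, 1.86 and 2.03, 2.19, 2.33 and 1.54 and 3.39, 3.26 and 2.51 FPKM, with VILI 6 hours above the other groups, and its change of 0.59 ± 0.22 was lost without control replicate 2 or 3 or VILI 6 hours replicate 1 or 2.

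From VILI 0 hours to VILI 6 hours most called loci went up: 73 of 519 were higher and 4 lower at P under 0.05 (all rows, 3.82% and 3.58%, 7.4% in all). The median change was 0.26, against -0.01 for all rows, -0.15 for lincRNA rows (8 of 453 higher and 29 lower) and 0.24 for sense-intronic rows (20 of 136 higher and 2 lower). All 3 VILI 6 hours libraries lay above the 3 VILI 0 hours libraries at 102 loci and below them at 5 (all rows, 6.09% and 5.3%). By limma 0 loci passed an adjusted p of 0.05 (all rows, 0.0214%), with a lowest value of 0.254, and 2 did without VILI 6 hours replicate 1. The number of called loci, 77, was 51 without VILI 0 hours replicate 1 or 2 and 46 without VILI 6 hours replicate 3. This comparison shares the VILI 0 hours libraries with the first and is not independent of it.

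The hosts had 21 higher and 20 lower (all genes, 5.06% and 4.94%, 10% in all), or 17 and 18 with median-centred libraries, with a median of -0.01 and 0 at an adjusted p under 0.05 (limma; 0% of all genes). Without VILI 6 hours replicate 1, 105 hosts were called and 4 passed the adjusted p. The ratio to the host was higher for 82 of 466 loci and lower for 2 (background, 16.7% and 1.36%, 18% in all), with a median of 0.29, and 1 passed an adjusted p of 0.05 (background, 0.271%), that of Gm37140. Without VILI 6 hours replicate 3 it was called for 51 loci. For 72 higher loci with a host, the host was higher for 13.

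Gm37310 had the highest change between the times. It lies in Slc1a3, a glutamate transporter gene, and read 1.44, 1.16 and 0.904 FPKM in control, 0.347, 0.298 and 0.197 at VILI 0 hours and 1.10, 0.731 and 1.41 at VILI 6 hours. The VILI 0 hours values stood clear below both other groups, which overlap. It fell by 1.73 ± 0.33 from control to VILI 0 hours and rose by 1.61 ± 0.33 from there to VILI 6 hours, whereas Slc1a3 fell by 0.76 ± 0.25 and then had 0.35 ± 0.25. Gm38157 in Dst, which encodes the cytoskeletal linker dystonin, read 1.31, 1.39 and 1.37 FPKM in control, 0.512, 0.475 and 0.532 at VILI 0 hours and 1.27, 1.03 and 1.73 at VILI 6 hours. It fell by 1.26 ± 0.25 and rose by 1.22 ± 0.25 on the log2 scale, so that VILI 6 hours against control was -0.04 ± 0.25. Gm45191 in the protein kinase C gene Prkcb had 0.377, 0.542 and 0.459 FPKM at VILI 0 hours, below the 1.55, 1.24 and 0.981 of control and the 0.9502, 1.24 and 1.62 of VILI 6 hours, and it fell by 1.26 ± 0.29 and rose by 1.27 ± 0.29.

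Gm43428 rose together with its host. It lies in Slc39a8, which encodes a zinc importer, and read 2.33, 2.40 and 2.55 FPKM in control, 1.09, 1.55 and 1.17 at VILI 0 hours and 2.27, 3.62 and 6.04 at VILI 6 hours. The locus rose by 1.48 ± 0.33 and Slc39a8 by 0.62 ± 0.14 on the log2 scale between the times, and the host read 73.6, 82.1 and 72.1 FPKM at VILI 0 hours and 106, 103 and 147 at VILI 6 hours. Gm38070 lies in Il1r1, the signaling receptor for interleukin-1. Its FPKM were 0.954, 1.44 and 0.819 in control, 0.435, 0.488 and 0.496 at VILI 0 hours and 0.891, 1.31 and 2.498 at VILI 6 hours, lowest at VILI 0 hours in each case. It rose by 1.42 ± 0.38 between the times. Il1r1 had 0.43 ± 0.18, a call lost without control replicate 1 or 3, VILI 0 hours replicate 2 or 3 or VILI 6 hours replicate 2 or 3 (P up to 0.157). Gm37747 in the ceramide synthase gene Cers6 had 1.09 ± 0.40, a call lost when replicate 1 at VILI 0 hours, or replicate 1 or 3 at VILI 6 hours, was left out.

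**Figure D5:**
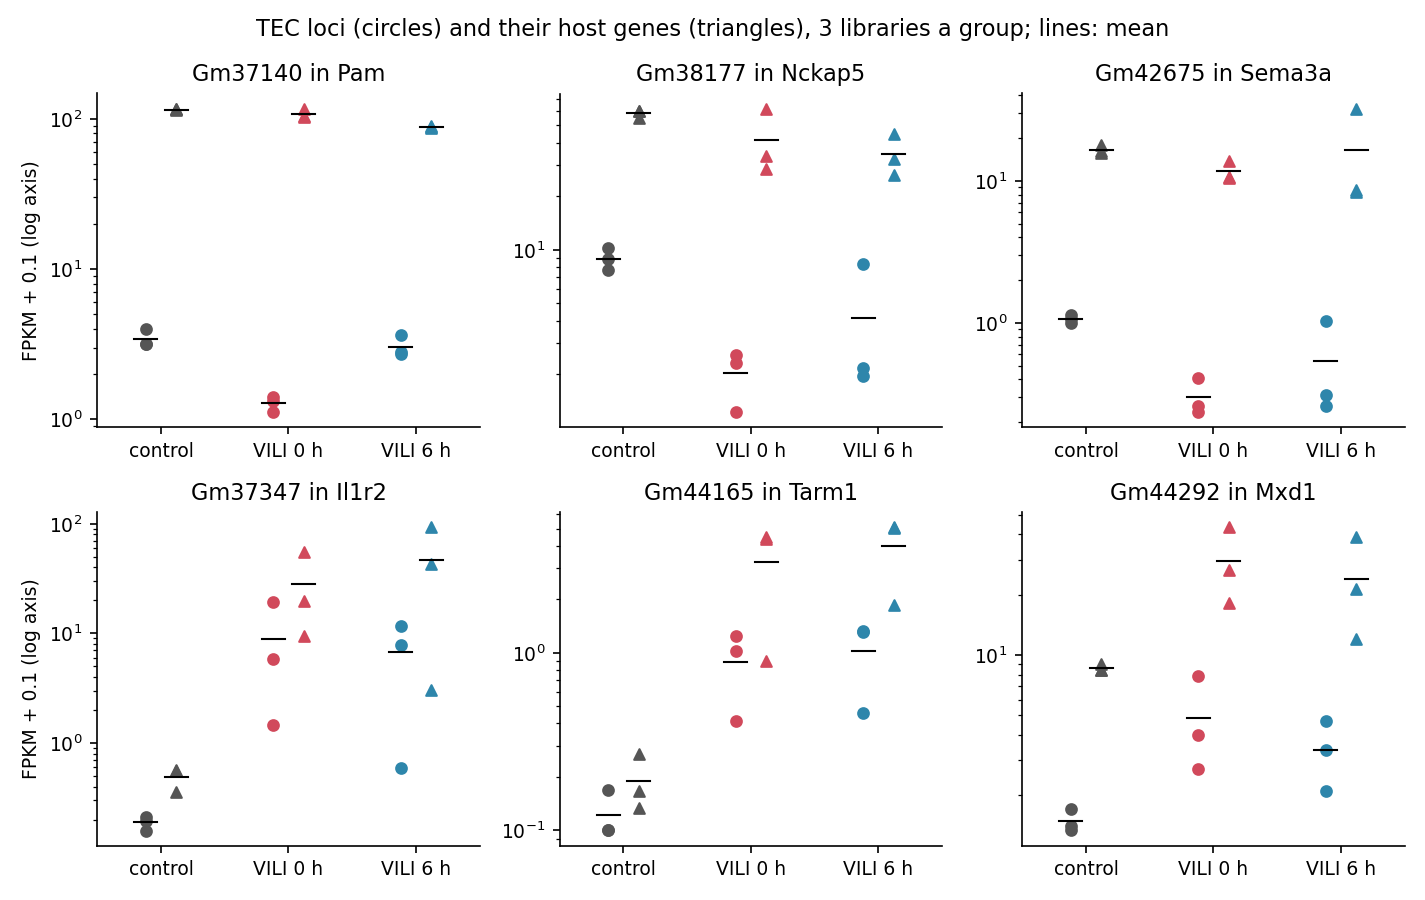
FPKM + 0.1 on a log axis of 6 TEC loci (circles) and their host genes (triangles) in the 3 libraries of each group, with lines at the group means. Gm37140 drops to between 1.02 and 1.32 FPKM at VILI 0 hours and returns to between 2.60 and 3.54 at VILI 6 hours while Pam lies between 103 and 117 in control and VILI 0 hours and between 86.9 and 90.1 at VILI 6 hours, and Gm37347 and its host Il1r2 are higher in all 6 ventilated libraries than in control.

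Nek7, a kinase gene of the inflammasome pathway, read 8.24, 8.18 and 9.26 FPKM in control and 50.6, 11.2 and 52.1 at VILI 0 hours, high in replicates 1 and 3 only. Its locus Gm37101 read 1.78, 1.52 and 1.23 and 1.03, 1.09 and 1.48 FPKM, with no such rise, so its ratio fell by 2.16 ± 0.58 on the log2 scale (adjusted p = 0.0379), the lowest ratio change at VILI 0 hours. Few ratios were higher. Gm38029 in Egfem1 was the locus whose ratio to its host was higher at VILI 0 hours, by 1.31 ± 0.42 (adjusted p = 0.0573), although neither the locus, at 0.400, 0.507 and 0.266 FPKM in control and 0.361, 0.782 and 1.30 at VILI 0 hours, nor Egfem1 passed the test alone. At VILI 6 hours the ratio was higher for Gm43547 in Klhl8, a substrate adaptor gene of ubiquitin ligases, by 1.52 ± 0.50. Its FPKM of 0.0241, 0.391 and 0.0535 in control and 0.419, 0.192 and 0.177 at VILI 6 hours overlap. The other 3 ratios called higher at VILI 6 hours, of Gm42671 in Golph3l, 9530022L04Rik in Phc3 and Gm38299 in Garnl3, were lost without single libraries.

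Of the 4 loci called lower from VILI 0 hours to VILI 6 hours, Gm43314 lies in Cth, a gene for hydrogen sulfide and cysteine synthesis. It read 0.318, 0.162 and 0.325 FPKM in control, 0.472, 0.441 and 0.425 at VILI 0 hours and 0.210, 0.211 and 0.0974 at VILI 6 hours, highest at VILI 0 hours in every library. Cth moved with it, rising by 0.87 ± 0.19 to VILI 0 hours and falling by 0.86 ± 0.19 from there. The change of Gm43314 between the times was -1.03 ± 0.35, and this call was lost without VILI 6 hours replicate 3. Gm43594 in the latrophilin gene Adgrl3 had -0.68 ± 0.29 between the times, lost without any control replicate, VILI 0 hours replicate 2 or 3 or VILI 6 hours replicate 1 or 3. The ratio to its host at VILI 6 hours changed by -1.13 ± 0.36 from control. The other two of the 4 are Gm44008 and A530030E21Rik, described above.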

How the data were processed

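Libraries were made by the submitters from TRIzol-extracted total RNA of mouse lung, 3 per group, with ribosomal RNA removed. Per the submitters' processing notes, reads were handled with Bowtie2 2.0.6, TopHat2 2.0.9 and Cuffdiff 2.1.1 on GRCm38, and the study assembled transcripts with Scripture and Cufflinks. The deposited table gives FPKM per transcript row (fragments scaled by transcript length and library size, computed by the authors with Cuffdiff). It has 1 column per library and no counts. Counting error was not computed, and the read totals that the study lists were not used here. The labels and the methods of the study name different library kits (TruSeq and a directional NEBNext kit), and the strand setting of the counting is not given in the sources used here.

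Rows were matched to GENCODE M21 by gene identifier without its version. Each of the 519 TEC loci had 1 row, and 2 TEC loci are not reported here. The host was the coding gene over a locus on the same strand, and its FPKM was summed over its rows. limma 3.58.1 (R 4.3.3; lmFit and eBayes with trend) was run on log2(FPKM + 0.1) in 1 model of all 9 libraries, after a filter on a mean of at least 0.1 FPKM, for 37300 rows, 19378 summed genes and 737 ratios of a noncoding row to its host, with Benjamini-Hochberg adjustment over each full table. The P threshold was an unadjusted 0.05, and ± is the SE. The replicates were separate mice. An exact permutation test of 3 against 3 could not go below p = 0.1. Tables and figures used Python 3.11.15, pandas 2.3.3, numpy 2.4.6, scipy 1.17.1 and matplotlib 3.10.9.

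Named loci are those with the largest called changes without overlap between the groups in each comparison, the largest called changes of the ratio, the 10 highest mean FPKM, loci in hosts of the marker and pathway lists, and loci in hosts with the most loci. The members and lists were chosen with earlier results of these data known. Alternatives changed the pseudocount, filter, scaling, error model, libraries, replicate block and host value. Median span, position and hexamer counts came from the GENCODE M21 models and transcripts on GRCm38.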

Additional observations from a re-analysis of the deposited data

Results flagged for a closer look

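The ratio of Gm37140 to its host Pam differed between the ventilated groups: its log2 change from VILI 0 hours to VILI 6 hours was 1.52 (limma, adjusted p = 0.026), where the change against control was -1.33 at VILI 0 hours and 0.20 at VILI 6 hours. All 3 VILI 6 hours libraries had more Gm37140 than any VILI 0 hours library. The adjusted call was made in 1 of 466 tested ratios of this comparison, and in 8 of the 9 fits without 1 library, with the replicate block and with the 6 libraries alone it was made in 0. Pam itself was lower at VILI 6 hours than at VILI 0 hours, by a log2 change of -0.29.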

How the results depend on the processing

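No read counts were used, and what depth allows was not assessed for any locus. The direction of the TEC shift, lower at VILI 0 hours and higher from VILI 0 hours to VILI 6 hours, was the same under each alternative run, while the number of calls moved. Among loci with a mean of at least 1 FPKM, 128, 56 and 48 TEC loci were called for VILI 0 hours against control, VILI 6 hours against control and VILI 6 hours against VILI 0 hours, in place of 208, 92 and 77, because fewer loci were tested, and the VILI 6 hours ratio had 27 calls in place of 47. With the 6 libraries of a comparison fitted alone, 35 TEC loci and 24 hosts were called between the times and 141 hosts at VILI 0 hours, and 54 ratios between the times. Median centring of the ratios, mostly those of TEC loci themselves, left 56, 31 and 42 calls and moved the ratio medians by 0.45, 0.17 and -0.28; the VILI 0 hours medians moved by 0.12 for TEC loci and 0.11 for hosts.

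With each library left out in turn, TEC calls ranged from 128 to 225 at VILI 0 hours, 41 to 158 at VILI 6 hours and 46 to 88 between the times. Host calls ranged from 46 to 130, 60 to 175 and 28 to 105, and ratio calls from 123 to 193, 27 to 84 and 51 to 98. Over all comparisons, 47 of 90 values past the threshold for named loci lost it with at least 1 library left out, as did 22 of 47 for their hosts and 32 of 73 for their ratios. Of 71 named changes of a locus or ratio past the threshold, the replicate block ended 7, median centring 7, and pseudocounts of 0.01 and 1 FPKM 4 each. With 1 FPKM the median TEC changes were -0.29, -0.16 and 0.15 and the median ratio changes -0.25, -0.10 and 0.16 in the 3 comparisons, smaller because a larger constant shrinks log changes of low values. The sign at VILI 0 hours was not stable for loci without a call: Gm37352 (-0.18 to 0.29), C230096K16Rik (-0.25 to 0.27), Gm19721 (-0.11 to 0.038, and 0.069 with median-centred libraries), Gm42735 (-0.092 to 0.24), Gm44835 (-0.12 to 0.16) and Gm37962 (-0.41 to 0.056). The cause was not tested.

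Replicates carry the same numbers in all groups. Deviations of same-numbered libraries from their group means correlated at -0.159 to 0.026, so the numbers did not pair the mice. With the replicate number as a block, 170, 68 and 55 TEC loci, 74, 88 and 35 hosts and 162, 37 and 61 ratios were called, and 0 of the 75 adjusted ratio calls at VILI 0 hours were made.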

Other observations

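The TEC loci were concentrated on few chromosomes. Chromosomes 5, 1, 3, 6 and 7 held 126, 121, 75, 72 and 32 of them, which is 426 of 519 (82.1%), and 19 chromosomes held at least 1. This follows the annotation and the FPKM limit and uses no comparison between groups.

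Outside coding genes, Gm9930 had the lowest change at VILI 0 hours. It lies 87255 bases beyond the end of Samd5, the nearest upstream coding gene on its strand, and read 0.933, 1.22 and 0.815 FPKM in control, 0.164, 0.239 and 0.187 at VILI 0 hours and 0.749, 0.372 and 0.327 at VILI 6 hours. The 3 groups do not overlap. The locus fell by 1.87 ± 0.35 on the log2 scale at VILI 0 hours (SE; limma, adjusted p = 0.16), and its call held without each library in turn.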
